A study of Mus musculus with 30 samples.

Results

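The transcriptome of wild-type mouse skeletal muscle was compared with that of 4 other organs of the same genotype. The members are the 3 wild-type libraries of quadriceps femoris, a thigh muscle, out of 30 libraries in the series, and they were set against the 12 wild-type libraries of brain, kidney, liver and spleen (3 each). They were chosen by their labels (tissue, and the control genotype) and by nothing that was measured. All animals were adult C57BL/6 mice. The control libraries carry no engineered allele, while the 15 remaining libraries come from Ctcf+/- mice, in which 1 copy of the gene for the DNA-binding protein CTCF is inactive. Total RNA was taken from pieces of whole organ, so a muscle library can hold RNA of vessels, nerve, connective tissue and blood beside that of the fibres. The design text says that the 5 tissues came from 3 wild-type mice, but the labels do not tie a library number to an animal. The fit treats the libraries as independent, and its p-values measure the spread between libraries.

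Skeletal muscle fibres are long cells with many nuclei that are packed with sarcomeres, in which myosin thick filaments pull on actin thin filaments between Z discs. A nerve impulse reaches the fibre at the neuromuscular junction, runs along the membrane into the T-tubules and opens calcium release channels of the sarcoplasmic reticulum. Calcium then binds troponin and frees actin for myosin. Fast fibres carry fast myosins and rely on phosphocreatine and glycolysis, and slow fibres carry slow myosin and more mitochondria. Many of these parts are encoded by muscle members of gene families whose other members serve other cells.

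Promoter sequences are printed for the genes that were both among the most abundant in muscle and among those farthest above every other tissue, since the results turn on them. These were Acta1, Tnnt3, Myh4 and Ckm, and 3 of the 4 matched an entry of the RefSeq promoter table (Tnnt3 did not). Each line gives the 250 bases before the start that RefSeq annotates, which can differ from the gene start in the count tables, 5′ to 3′ on the gene's strand, build GRCm38.p6. Capitals mark the motifs searched on both strands, which were the CArG box bound by serum response factor, the MEF2 site, the E-box CAGCTG, the TATA-type run TATAAA and the element CATTCC bound by TEAD factors.
Acta1, chr8:123894776-123895025, minus strand: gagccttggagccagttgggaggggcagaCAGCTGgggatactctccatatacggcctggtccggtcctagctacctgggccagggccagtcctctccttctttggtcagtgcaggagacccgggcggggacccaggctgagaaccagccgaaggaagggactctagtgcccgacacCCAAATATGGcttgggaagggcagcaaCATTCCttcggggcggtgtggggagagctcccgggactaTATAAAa
Myh4, chr11:67237562-67237811, plus strand: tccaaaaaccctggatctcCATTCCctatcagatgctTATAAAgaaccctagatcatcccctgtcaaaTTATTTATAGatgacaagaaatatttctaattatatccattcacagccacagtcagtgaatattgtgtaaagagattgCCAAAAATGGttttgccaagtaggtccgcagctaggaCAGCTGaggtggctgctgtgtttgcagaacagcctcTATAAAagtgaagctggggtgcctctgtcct
Ckm, chr7:19410844-19411093, plus strand: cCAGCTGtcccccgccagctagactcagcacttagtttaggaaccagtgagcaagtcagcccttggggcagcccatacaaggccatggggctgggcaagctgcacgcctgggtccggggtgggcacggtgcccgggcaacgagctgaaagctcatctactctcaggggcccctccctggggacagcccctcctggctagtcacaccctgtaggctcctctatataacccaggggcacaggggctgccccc
In the Acta1 window a CAGCTG, a CArG box, a CATTCC and a TATAAA were found, starting 221, 73, 46 and 7 bases before the start. The Myh4 window held a CATTCC (231), a MEF2 site (182), a CArG box (104), a CAGCTG (67) and 3 TATAAA runs, 1 of which is on the opposite strand and overlaps the MEF2 site. The Ckm window held a CAGCTG that starts 249 bases before the start. Over all 27025 genes with such a window, 1.4% held a CArG box, 3.01% a MEF2 site, 12.8% a CAGCTG, 12.6% a CATTCC and 13.0% a TATAAA. Over the 14858 of these that were tested below, the shares were 1.95% for MEF2, 1.2% for CArG, 12.7% for CAGCTG, 11.2% for CATTCC and 8.19% for TATAAA. Over 1206 muscle-enriched genes (defined below) they were 4.81% for MEF2, 2.07% for CArG, 16.3% for CAGCTG, 12.7% for CATTCC and 9.37% for TATAAA. Over the 213 of those with the largest margins, at least 5 on the log2 scale, they were 17.8% for MEF2, 4.23% for CArG, 27.7% for CAGCTG, 16.0% for CATTCC and 19.2% for TATAAA. Over 772 muscle-depleted genes they were 1.68% for MEF2, 1.04% for CArG, 10.8% for CAGCTG, 10.1% for CATTCC and 6.22% for TATAAA. The bases G and C made up 58.2% of the windows of tested genes, 58.2% for enriched genes, 53.8% for the 213 and 59.2% for depleted genes. A match of letters is a description of the window and shows no binding.

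Total counts ran from 93.1 M to 103.7 M in the 3 muscle libraries and from 49.8 M to 98.5 M in the 12 others. Levels are given as CPM, read counts scaled to a common library size with TMM factors, and a count of 0 allows up to 3 counts, which is at most 0.0790 CPM in any library and covers counting error only. Fragments overlapping exons of several genes were left out by the authors' counting, which also ignored strand, so genes with an overlapping neighbour are uncertain where named as such. Some libraries held transcripts that mark another tissue. In kidney replicate 3, Acta1 was at 27.2 CPM and Myh4 at 43.0 CPM, against at most 0.113 and 0.00868 CPM in the other kidney libraries. Muscle replicate 2 held the kidney androgen-regulated transcript Kap at 80.2 CPM, where the other muscle libraries had 9.94 and 9.21 CPM, and liver replicate 3 held the neuronal Snap25 at 16.4 CPM. Muscle replicate 1 held albumin (Alb) at 16.5 CPM against 1.11 and 1.26 CPM in the others. Folds are therefore also given without muscle replicate 2, kidney replicate 3 and liver replicate 3, a choice made after the data were seen. Muscle replicate 1 was kept in that fit. The libraries kept were not free of such transcripts, as the Kap levels of 9.94 and 9.21 CPM in muscle show.

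A gene is called muscle-enriched when it was higher in muscle than in each of the 4 other tissues by at least 1 on the log2 scale (2-fold) and the largest of its 4 pairwise p-values had an adjusted p under 0.05. The smallest of the 4 log2 differences is its margin. The p-values come from edgeR's quasi-likelihood test with Benjamini-Hochberg adjustment over all 22933 genes tested of 48709 in the tables. Of those, 1835 were muscle-enriched (8.0%) and 1027 were muscle-depleted (4.48%), meaning lower than in each other tissue by the same rule. All 3 muscle libraries lay above all 12 others for 1826 of the 1835, and below all 12 for 1009 of the 1027, against 14.1% and 9.24% of all genes tested. The 1835 enriched genes included 1424 protein-coding genes and 144 pseudogenes, and the 1027 depleted genes included 925 and 14. All 22933 genes tested included 17196 protein-coding genes and 1296 pseudogenes. Margins were larger among enriched genes: 318 enriched genes had a margin of at least 5 and 75 of at least 10, while 46 depleted genes reached 5 and none of the 1027 reached 10. The rule itself treats these sides unequally. An enriched gene can be near 0 in all 4 other tissues, while a depleted gene must be well expressed in all 4 to reach a large margin. Within the threshold by less than 0.2, with margins of 1 to 1.2, lay 243 enriched and 164 depleted genes, and 271 and 161 genes with an adjusted p under 0.05 lay just outside it, at 0.8 to 1.

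The enriched genes took 66.5% to 67.7% of all counts in the muscle libraries, against 6.34% to 13.9% in the other tissues. The 10 most abundant genes of muscle took 27.2% to 29.5%. Myh4, the fast myosin heavy chain of type 2B fibres, alone took 5.48% ± 0.310 (SD, n = 3) of the counts, the fast troponin T gene Tnnt3 took 3.78% ± 0.246 and skeletal actin (Acta1) 3.71% ± 0.173. The number of calls depended on the scaling. With TMM the median gene was lower in muscle than the mean of the other 4 tissues by -0.34 on the log2 scale, and with total counts by -1.33. Under total counts 820 genes (3.58%) were enriched, all of them among the 1835, and 2559 (11.2%) were depleted, including all 1027. Counts under total-count scaling are given below beside those under TMM. Without the 3 libraries named above, 1745 genes were enriched and 985 depleted.

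**Figure D1:**
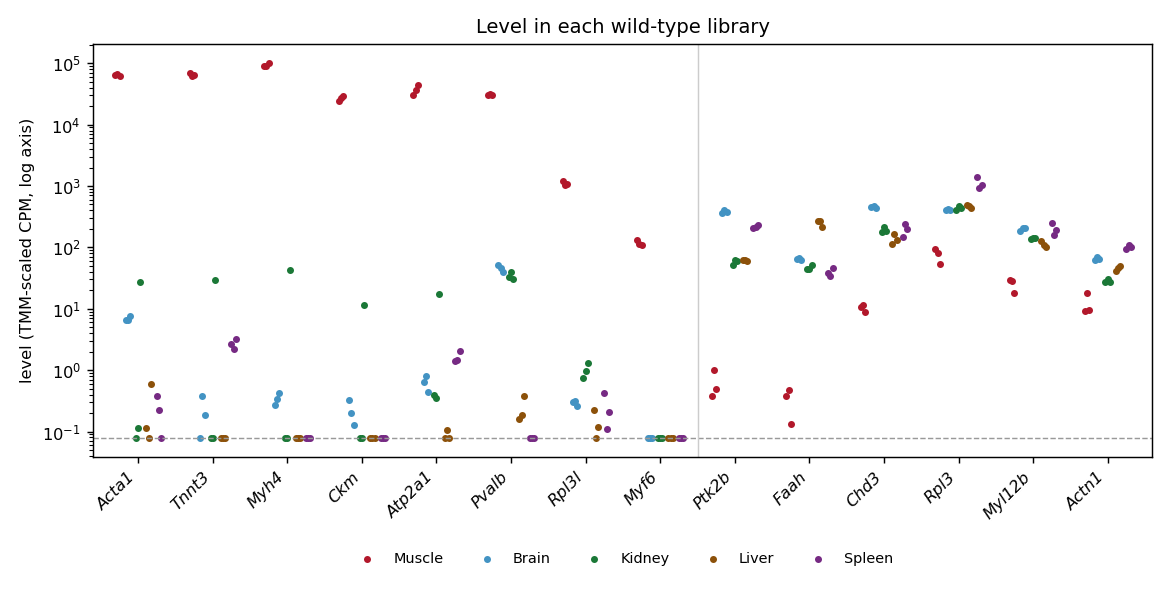
Level of 14 genes in each of the 15 wild-type libraries, as TMM-scaled CPM on a log axis, with 1 point per library coloured by tissue. Values below 0.0790 CPM, the highest level that 3 counts give in any library (dashed line), are drawn on it; the 8 genes left of the vertical line are muscle-enriched and the 6 on the right muscle-depleted. The single green points between 10 and 100 CPM over Acta1, Tnnt3, Myh4, Ckm and Atp2a1 are kidney replicate 3.

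Among the 13 myosin heavy chain genes, 10 were enriched (7 under total counts) and none was depleted, and the list's median difference from the mean of the other tissues was 6.39 log2 units (5.81 with tissues at or under 3 counts set to that floor), beside -0.34 for all genes. Myh4 (chr11:67238029-67260446, plus strand) stood at 91351, 91064 and 101802 CPM in the 3 muscle libraries, and at 0 to 43.0 CPM in the 12 others with a median of 0.00434. Every muscle library lay far above every other, and the mean was 6607-fold above kidney (adjusted p = 0.003, edgeR) and 281756-fold above brain once the trace libraries were left out. Myh1, the type 2X myosin, was at 8952, 7329 and 6531 CPM and Myh2, the type 2A myosin, at 5299, 4316 and 1741 CPM. The slow and cardiac beta myosin Myh7 was at 679.6, 1010.4 and 439.5 CPM, 58.1-fold above brain. Per kb of exon, Myh4 made up 89.6% ± 2.84 (SD, n = 3) of the summed level of these 4 adult fibre myosins, Myh1 6.84% ± 1.23, Myh2 3.05% ± 1.53 and Myh7 0.476% ± 0.206. The developmental myosins Myh3 and Myh8 were called too, at means of 7.89 and 8.48 CPM. Fibre myosin genes are near-identical neighbours, so fragments shared between them were not counted and low members are uncertain. The non-muscle myosins Myh9 and Myh10 were not called, at 72.7 to 117 CPM in muscle against 609.7 to 760.4 CPM in spleen for Myh9.

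Of 20 genes for myosin light chains and myosin-binding proteins, 13 were enriched (12 under total counts) and 2 depleted under both scalings. The essential light chain Myl1 was at 20352, 20691 and 21139.6 CPM and the fast regulatory light chain Mylpf at 23999, 21725 and 22603 CPM, and their libraries lay above every other library, the highest of which had 8.90 and 14.5 CPM. Mybpc2, fast myosin-binding protein C, was at 8881 ± 1149.5 CPM (SD, n = 3), 3507-fold above spleen. The kinase Mylk2, which phosphorylates the skeletal regulatory light chain, had a mean of 1874 CPM and was at least 23560.2-fold above the other tissues, the highest of which was at or under 3 counts in each library kept. The slow light chains Myl2 and Myl3 were also enriched, at 649, 659.9 and 213 and at 1067, 1213 and 359.8 CPM, with replicate 3 the lowest for both. A pair of close relatives that serve non-muscle and smooth muscle myosin went opposite ways: Myl12a was enriched at 498, 529.5 and 365 CPM (margin 1.48, adjusted p = 1.1e-05, edgeR) and Myl12b was depleted at 29.4, 28.7 and 17.9 CPM against 102 to 246 elsewhere (margin -2.16, adjusted p = 1.1e-06). Myl12a was not called under total counts. Cardiac Mybpc3, the other depleted member, was at 0.0327, 0 and 0 CPM and at 0.0521 to 0.759 CPM elsewhere, and was not called without the trace libraries.

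The 27 thin filament genes comprise 18 enriched (16 under total counts) and none depleted. Acta1 (chr8:123891769-123894751, minus strand), the actin of skeletal thin filaments, stood at 64655, 66369 and 61337 CPM against 0.0352 to 27.2 CPM in the other 12 libraries (median 0.299). The muscle libraries differed by less than 10% from one another, and the mean was 7022-fold above kidney (adjusted p = 4.2e-04, edgeR) or 9018-fold above brain without the trace libraries. Tnnt3 was at 68918, 62796 and 63873 CPM, 24279-fold above spleen without them, and Tnni2, fast troponin I, at 25389, 21075 and 19893 CPM. Tnnc2, fast troponin C, reached only 8.04, 5.14 and 6.96 CPM although it was enriched (at least 94.9-fold); its exons overlap those of Ube2c, so this level is uncertain. The slow troponins were enriched as well, with Tnnt1 at 571, 752 and 272 CPM, Tnni1 at 229, 320.4 and 107 CPM and Tnnc1 at 370.1, 432 and 164 CPM, and replicate 3 was the lowest for all 3. Actc1, the actin of heart muscle, was at 1718, 3331 and 2705 CPM, and nebulin (Neb), a ruler of thin filament length, at 4435, 5636 and 6743 CPM. The tropomyosins split, with Tpm1 and Tpm2 enriched at means of 44010.4 and 19232 CPM, while Tpm3 (slow and non-muscle) and Tpm4 were not called.

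In the Z disc, titin and upkeep list 40 of 42 were enriched under both scalings, with Actn1 depleted and Actn4 depleted under total counts. Its median difference was 11.05 log2 units (10.90 with the floor). The alpha-actinins, which cross-link actin at the Z disc, divided by type. Actn3 of fast fibres was at 17786, 18876 and 21636 CPM and Actn2 at 2301, 2043 and 946 CPM, 18885-fold and 91.6-fold above the next tissue. Non-muscle Actn1 was at 9.03, 18.0 and 9.53 CPM against 27.2 to 109.5 CPM elsewhere (margin -1.23, adjusted p = 3.8e-04, edgeR). Titin (Ttn), the spring that spans each sarcomere's end to its centre, was at 10239, 14674 and 16902 CPM. Myotilin (Myot) and the Xin-repeat gene Xirp2, both Z disc or junction proteins, had margins of 12.75 and 12.69 and means of 1695 and 3267 CPM. Desmin (Des), the intermediate filament of muscle, was at 6104, 5313 and 5413 CPM and 346-fold above kidney. The ubiquitin ligase genes Fbxo32 and Trim63, which tag muscle proteins for breakdown, were enriched at 463, 591 and 531 and 470.1, 636 and 442 CPM. Csrp3, a Z disc LIM protein, was at 814, 502 and 61.6 CPM in muscle and 74.5, 58.7 and 56.8 CPM in liver, so muscle replicate 3 lay within the range of liver.

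In the excitation and calcium list 26 of 32 were enriched (24 under total counts) and none was depleted. Atp2a1, the fast calcium pump that returns calcium to the reticulum, was at 30237, 36969 and 44237 CPM against 0.0453 to 17.1 CPM elsewhere. Its exons overlap Rabep2. Parvalbumin (Pvalb), a soluble calcium buffer of fast fibres, was at 30734, 31693 and 30007 CPM, while the brain libraries had 39.6 to 51.6 CPM and the kidney libraries 30.4 to 39.5 CPM. That placed muscle 671-fold above brain (adjusted p = 2.8e-09, edgeR), with every muscle library above every other. The voltage sensor of the T-tubule (Cacna1s) was at 657, 785 and 929.7 CPM and the release channel Ryr1 at 5154, 5863 and 6438 CPM, 1480.0-fold and 429-fold above brain. The calcium store protein Casq1 was at 5253, 6057 and 6439.6 CPM, with its slow and cardiac relative Casq2 at 121, 136 and 60.2 CPM. Subunits that brain also uses had small margins: Cacnb1 1.80 and Cacna2d1 2.23, and neither was called under total counts. Atp2a2, Atp2a3, Ryr2, Ryr3, Pln and Tmem38b were not called, and Ryr2, the cardiac and brain release channel, was at 0.0655 to 0.225 CPM in muscle against 92.7 to 122 CPM in brain.

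The membrane-anchoring list (dystrophin, sarcoglycans, syntrophins and laminin receptors) had 12 of 17 enriched, and 8 under total counts. The sarcoglycan Sgca was at 318, 311 and 323 CPM, 1649-fold above brain. Dystrophin itself (Dmd) was at 87.9, 108 and 115 CPM, with a margin of 1.58 to brain, and was not called under total counts, and neither were Dag1 and Lama2. Utrn, the relative that anchors non-muscle membranes, was not called (28.3 to 36.1 CPM in muscle, 25.0 to 75.7 elsewhere). Of 10 neuromuscular junction genes tested 7 were enriched, and 5 under total counts. The receptor subunits Chrna1, Chrnb1, Chrnd and Chrne, which form the adult acetylcholine receptor, were all called, at 27.4, 48.5, 4.47 and 21.2 CPM. The fetal subunit Chrng was at 0.0188 to 0.213 CPM and too low to be tested. Rapsn, which clusters the receptors, was at 62.2, 57.5 and 59.6 CPM and the kinase Musk at 2.26, 4.64 and 3.38 CPM, the latter not called without the trace libraries. Ache, Dok7 and Lrp4 were not called, and brain had 50.8 to 70.4, 12.5 to 16.0 and 31.1 to 35.0 CPM against 50.9 to 56.4, 24.4 to 28.6 and 11.2 to 11.6 CPM in muscle.

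Of 20 myogenic transcription factor genes 17 were enriched, with 12 called under total counts and none depleted. Of the 4 myogenic bHLH factors, Myf6 (MRF4) had the highest level per kb of exon, with 129.8, 112 and 111 CPM, and Myod1, Myog and Myf5 followed at 27.3, 15.6 and 27.6, at 13.1, 8.58 and 18.0 and at 2.26, 2.12 and 2.40 CPM. The 12 other libraries had at most 0.0707 CPM of Myf6, 0.260 CPM of Myod1 and 0.0398 CPM of Myog, and 0 of Myf5. Muscle was at least 1522-fold above the highest other tissue for Myf6 and at least 29.5-fold above it for Myf5, without the trace libraries. The homeobox gene Lbx1 was at 133, 122 and 157 CPM and the T-box gene Tbx15, active in fast fibres, at 331, 298 and 375 CPM. Mef2c was at 567, 685 and 791 CPM, but brain reached 228 to 352 CPM and its margin was 1.25. Mef2a, Mef2d and Mef2b were not called.

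Members of gene families, most of them metabolic enzymes and carriers, were compared as 28 pairs of a muscle member and a member used elsewhere, at levels per kb of exon. The muscle member was enriched in 25 pairs (24 under total counts) and the other member depleted in 8 (13 under total counts), and in 7 pairs both happened. In 25 pairs the muscle member's share of the pair was higher in all 3 muscle libraries than in all of the 12 others with a defined share. A share is undefined where neither gene had counts, as for Ckmt2 and Ckmt1 in a spleen library. The exceptions were Aldoa, Ldha and Gpd1, whose shares in brain, spleen, liver or kidney reached those in muscle. The gap could be small in the 25 pairs. Car3 made up at least 99.4% of its pair in muscle and up to 99.1% in liver. Gys1 made up at least 99.9% in muscle and up to 99.5% in brain. The muscle creatine kinase Ckm (chr7:19404776-19422841, plus strand), which regenerates ATP from phosphocreatine, was at 24188, 26779 and 29238 CPM against 0.00799 to 11.5 CPM elsewhere (median 0.0488), and 121928-fold above brain without the trace libraries. Brain creatine kinase Ckb was at 11.9, 14.5 and 10.6 CPM in muscle and 1147 to 1219 CPM in brain, so Ckm made up 99.9% of the pair in each muscle library and at most 2.98% in any other library. For phosphoglycerate mutase both members were called, with Pgam2 enriched at 5390.4, 4793 and 4578 CPM and Pgam1 depleted at 10.2, 10.6 and 7.35 CPM (margins 6.54 and -1.09). The glycolytic genes Aldoa and Eno3 were at 34171, 36441 and 41518 and at 15367, 13475 and 15312 CPM, 26.8-fold above brain and 547-fold above spleen. Glycogen phosphorylase Pygm was at 11609, 12858 and 16559 CPM, 335-fold above brain, and the insulin-responsive glucose carrier Slc2a4 at 837, 848 and 827 CPM, 27.0-fold above kidney. The cytochrome oxidase subunit gene Cox6a2 made up 97.2% to 98.0% of its pair with Cox6a1 in muscle and at most 3.28% elsewhere, while Cox7a1 made up 73.1% to 75.4%. The ADP/ATP carrier Slc25a4 was enriched at 9246, 8278 and 8013 CPM and its relative Slc25a5 depleted at 62.6, 68.6 and 41.8 CPM. Cpt1b, the muscle carnitine palmitoyltransferase, read only 2.98, 3.76 and 3.02 CPM, but its exons overlap Chkb and its share is uncertain. Gpd2 was the 1 enriched gene among the non-muscle members, at 320.0, 486 and 572 CPM.

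**Figure D2:**
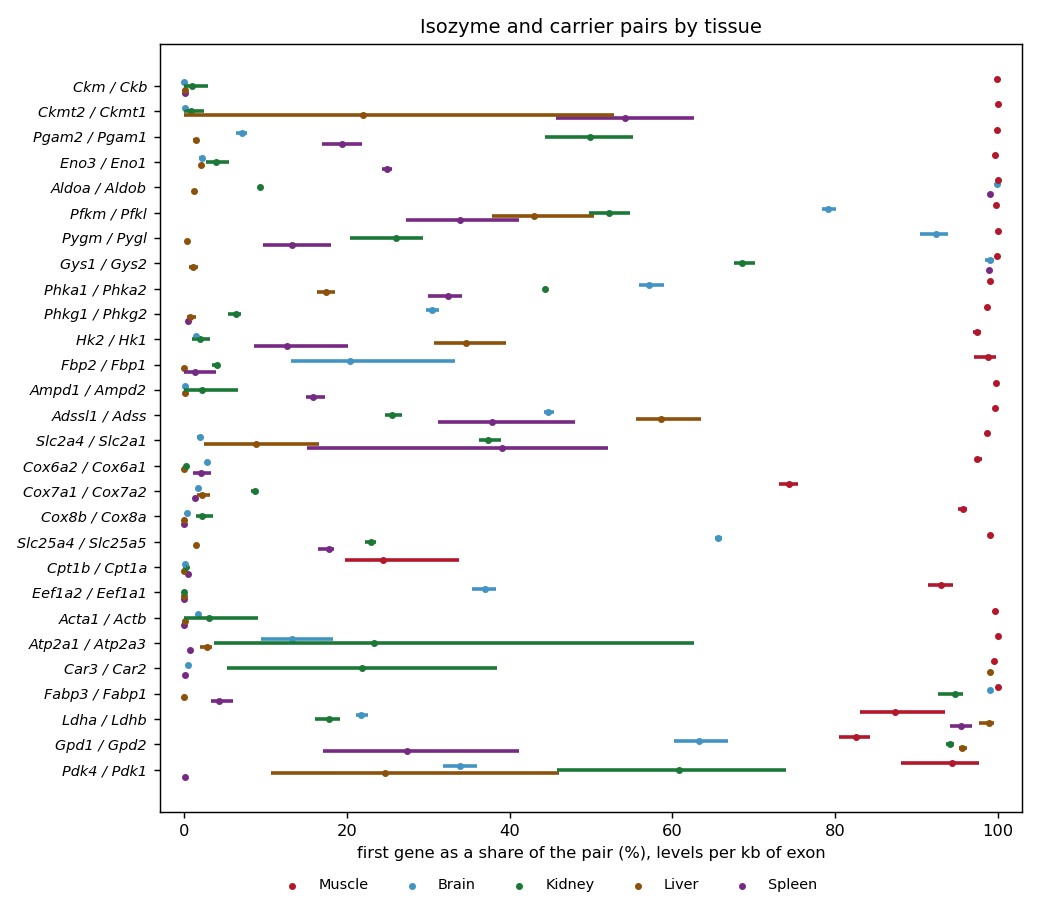
Share of the first-named gene in each of 28 pairs, in percent of the pair's summed level per kb of exon. Points are means of the wild-type libraries with a defined share (at most 3), and lines run from the lowest to the highest library. Muscle lies at the right edge for most pairs, with Cpt1b / Cpt1a (mean near the left) and Cox7a1 / Cox7a2 the farthest from it. Where both genes are near 0, as for Ckmt2 / Ckmt1 in spleen, the share is imprecise, and a library without counts of either gene has no share.

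Among genes of translation, a few pairs split in the same way. Of 84 ribosomal protein genes tested, 1 was enriched and 1 depleted under TMM (1 and 3 under total counts), and they are a pair. Rpl3l, a muscle form of ribosomal protein L3, was at 1215, 1039 and 1059 CPM against 0 to 1.33 elsewhere (1326-fold above kidney, adjusted p = 2.2e-09, edgeR). Rpl3 was at 95.5, 79.8 and 53.4 CPM against 400.1 to 1408 elsewhere (margin -2.42, adjusted p = 6.8e-07), so Rpl3l made up 96.0% to 97.4% of the 2 genes in muscle and at most 0.575% in any other library. The elongation factor Eef1a1 was depleted at 407, 462 and 286 CPM against 1626 to 7675 CPM elsewhere. Its relative Eef1a2 was at 4629, 4102 and 4112 CPM, while brain had 811 to 892 CPM. Its margin was 2.33 but its adjusted p was 0.4 (edgeR) and it was not called. Kidney replicate 3 and liver replicate 3 had 2.03 and 7.66 CPM of it, against at most 0.295 CPM in the other kidney and liver libraries, and without the trace libraries it was enriched. Cofilin, which cuts actin filaments, has a muscle form too: Cfl2 was enriched at 668, 684 and 657 CPM and Cfl1 depleted at 90.0, 89.1 and 63.7 CPM. The Rpl3 and cofilin pairs, Myl12a with Myl12b and Actn3 with Actn1 were set side by side after their values were seen.

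Energy genes of mitochondria were high in muscle, but most calls rested on the scaling. All 37 complex I subunit genes, which encode the NADH dehydrogenase of the respiratory chain, were higher in muscle than the mean of the other tissues (adjusted p under 0.05, edgeR), as were 32.2% of all genes, and the list's median difference was 2.39 log2 units under TMM and 1.42 under total counts. Higher than in every tissue by the margin were 31 of 37 under TMM and 2 under total counts, Ndufs7 and Ndufc1. Ndufs7 was at 774, 655 and 590.1 CPM against 113 to 154 in kidney and 99.8 to 137 in liver. Of the 13 protein genes of the mitochondrial genome 10 were enriched under TMM and none under total counts. mt-Co1, a cytochrome oxidase subunit, was at 51269, 67899.5 and 64326 CPM against 26840.1 to 27865 in kidney and 24874 to 30686 in liver, 2.22-fold above liver. mt-Nd1 was at 18689, 24892 and 23107 CPM, 2.74-fold above liver. mt-Co2, mt-Co3 and mt-Atp6 had means of only 65.8, 76.3 and 45.5 CPM. Levels of the mitochondrial genome genes are uncertain, since fragments that fit several places or genes were not counted. Of the 13 genes, 10 share exon sequence with another gene. The part of this counting in the low levels was not tested. Of 20 genes of fatty acid uptake and oxidation, all 20 exceeded the mean of the other tissues, with a list median of 1.84 log2 units (0.87 under total counts). Tissue by tissue (adjusted p under 0.05, edgeR), 20 were higher than in spleen and 19 higher than in brain. Against kidney 12 were higher and 2 lower, and against liver 7 were higher and 8 lower. Under TMM 3 were enriched, Fabp3, Cd36 and Cpt1b, and 1 under total counts. Fabp3, the fatty acid carrier of muscle, was at 2035, 1132 and 651 CPM and 16.4-fold above kidney. Acadm, a dehydrogenase of medium-chain fatty acids, was at 473 to 557 CPM in muscle and 1263 to 1813 CPM in kidney.

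Of 14 genes for factors that muscle secretes, 4 were enriched (3 under total counts). Myostatin (Mstn), the inhibitor of muscle growth, was at 82.7, 69.5 and 81.8 CPM and 397-fold above brain, and Fgf6 and Ostn were at 10.7, 5.76 and 8.78 and 7.50, 7.26 and 5.65 CPM. Fndc5, the precursor of irisin, was at 174, 168 and 136 CPM with brain at 60.7 to 77.3 CPM and was not called under total counts. Il6 and Fgf21 were at 0.0818 to 0.168 and 0 to 0.115 CPM in muscle.

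**Figure D3:**
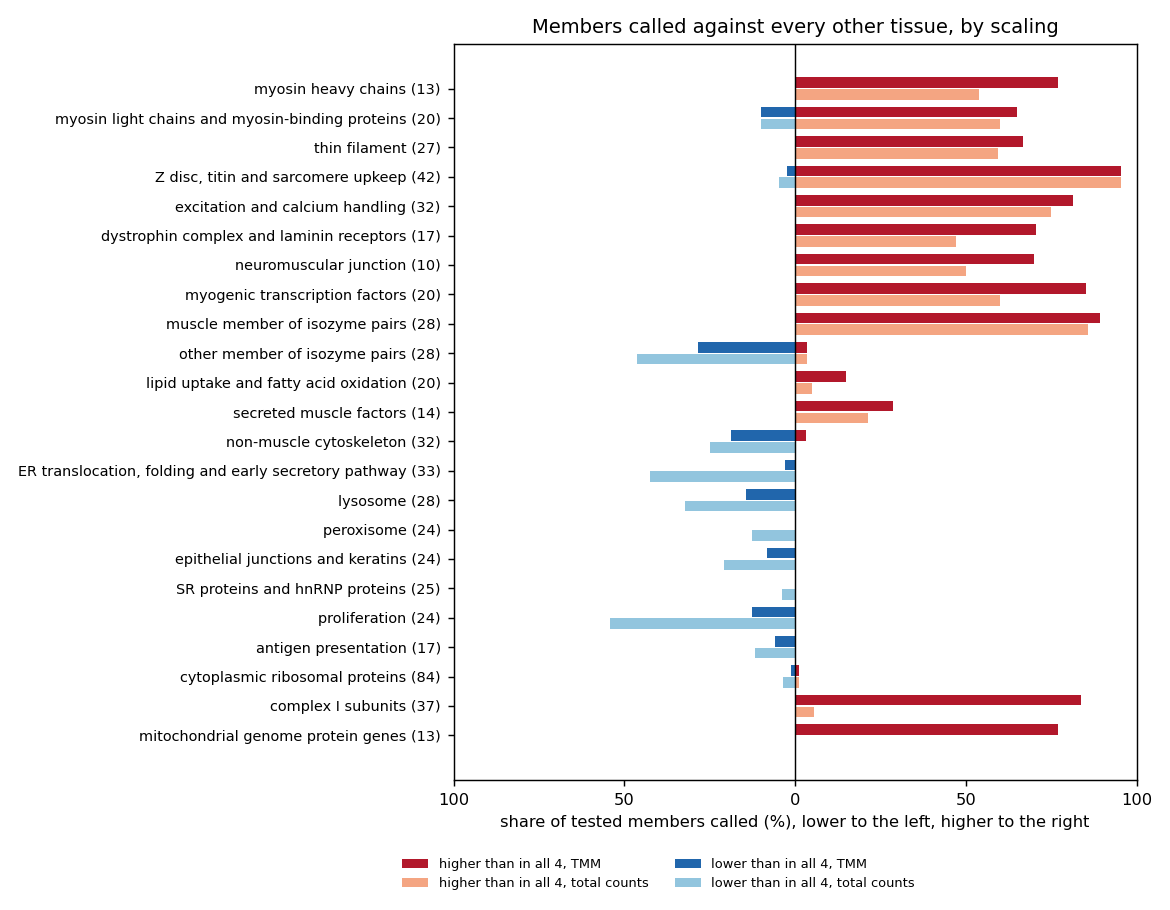
Share of tested members (number in brackets) called higher (right, red) or lower (left, blue) in muscle than in every other tissue, for 23 gene lists, under TMM (dark) and total-count scaling (light). Contractile, calcium and isozyme lists keep most calls under both, while complex I and the mitochondrial genome genes keep 2 of 31 and 0 of 10.

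The depleted genes that stood farthest below every other tissue, among those with at least 10 CPM in each, were 15 genes named by rule. Faah, which degrades endocannabinoid lipids, was at 0.376, 0.470 and 0.131 CPM in muscle and at 34.5 to 273 CPM in the other 12 libraries (median 57.4). That is 122-fold below spleen, the lowest other tissue (adjusted p = 4.8e-10, edgeR). The calcium-activated tyrosine kinase Ptk2b was at 0.376, 1.01 and 0.488 CPM against 51.7 to 401 CPM, 93.6-fold below kidney. Rab11fip4, an effector of recycling endosomes, was 58.1-fold below liver, and the adhesion molecule Alcam 30.0-fold below spleen. In these 4 genes no muscle library came within 10-fold of the lowest other library. Rasgef1b, Lpin2, Ptprj, Sema4a, Ralgps2 and Cers6 had margins of -4.51, -4.25, -4.17, -4.08, -3.96 and -3.95. The chromatin remodeller Chd3 was at 10.8, 11.4 and 8.74 CPM against 114 to 472 CPM, and Id2, an inhibitor of bHLH factors, at 4.21, 4.94 and 2.74 CPM against 50.8 to 261 CPM. Dtnb, the beta form of dystrobrevin, was at 1.26, 1.33 and 1.01 CPM against 13.7 to 43.3 CPM, while the alpha form Dtna was at 100.4, 100.1 and 127 CPM and not called. Marcksl1 and Iqgap2, both linked to the actin cortex, were 12.5-fold and 11.1-fold below the lowest other tissue. All 15 of these genes were depleted in the heterozygous libraries and without the trace libraries. They were also depleted under total counts, as were all 1027 depleted genes, since that scaling lowers muscle against the other tissues.

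Families of general cell biology were then counted. Of all genes tested, 4.48% were depleted under TMM and 11.2% under total counts. Under TMM the secretory pathway, peroxisome, SR and hnRNP, and antigen presentation lists lay near or below that share. Of 32 genes of the non-muscle cytoskeleton 6 were depleted (8 under total counts) and 1, the tubulin Tuba4a, was enriched under TMM only. The depleted genes were Cfl1, Actr2, Arpc5, Stmn1, Coro1a and Ezr, and the Arp2/3 subunit Arpc5 was at 28.8, 26.1 and 20.7 CPM against 56.4 to 318 CPM. Beta-actin (Actb) was at 440.3, 401 and 407 CPM against 446 to 3494 CPM and was not called. Of 28 lysosome genes 4 were depleted (9 under total counts), among them Ctss, Lgmn and Lipa. The lysosomal lipase gene Lipa was at 8.87, 9.32 and 6.96 CPM against 16.7 to 478 CPM. Of 33 genes of the endoplasmic reticulum and early secretory pathway 1 was depleted, the channel subunit Sec61a1 at 12.6, 15.2 and 15.4 CPM against 35.5 to 176 CPM, but 14 under total counts. None of 24 peroxisome genes and none of 25 SR and hnRNP genes was called under TMM, against 3 and 1 depleted under total counts. Of 24 epithelial genes 21 were lower than the mean of the other tissues (34.7% of all genes were), and 2, Cdh1 and Tjp3, were depleted (5 under total counts). Proliferation genes had 3 of 24 depleted (13 under total counts), Mcm5, Top2a and Bub1, and a median difference of -2.82 log2 units. Mki67 was at 0.394 to 2.37 CPM in muscle, 2.11 to 2.33 in brain and 172 to 727 in spleen. All 17 antigen presentation genes were lower than the mean of the others, yet 13 of the 17 were higher in muscle than in brain (adjusted p under 0.05 for that contrast, edgeR, against 32.5% of all genes). Only H2-DMa was depleted under TMM, and 2 genes were under total counts.

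Many genes were high in muscle and in 1 other tissue and low in the remaining 3, and such genes are not counted as enriched unless muscle also exceeded the partner. By the same thresholds, with the lower of muscle and its partner set against the highest of the rest, 806 genes (3.51%) were shared with brain, 368 (1.6%) with kidney, 217 (0.946%) with spleen and 186 (0.811%) with liver. These counts are from the TMM fit of all 15 wild-type libraries and were not repeated under total counts or without the trace libraries. The largest such margin with kidney, 14.48, was that of Kap, at 33.1 ± 40.8 CPM (SD, n = 3) in muscle and highest in muscle replicate 2. The part of traces of another tissue in these counts was not tested. The genes named here were among the 15 protein-coding genes with the largest such margin for each partner, and were picked from them after their values were seen. With brain, muscle shared Rbfox1, a splicing regulator, at 381 ± 56.8 CPM (SD, n = 3) against 194 CPM in brain and at most 1.65 CPM in the other tissue means. It also shared the kinase Camk2a, at 639 against 1915 CPM. With liver it shared Car3, a carbonic anhydrase, at 4539 CPM in muscle and 2577 CPM in liver, and Hfe2, which encodes hemojuvelin of iron sensing, at 1375 and 129 CPM. With spleen it shared the RNA-binding gene Rbm38, at 201 and 215 CPM, and the splicing regulator Mbnl1, at 538 and 348 CPM.

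Homeobox genes of the Hox clusters, which mark position along the body, were then counted. Of 32 tested, 23 passed that rule for kidney, 6 were higher in muscle than in every other tissue and none was lower than in every one. Hoxc10 was at 145, 161 and 184 CPM in muscle and 13.5, 14.6 and 13.6 CPM in kidney, and at 0 in the 9 libraries of brain, liver and spleen. Hoxc11, its neighbour in the cluster, was at 13.6, 11.9 and 16.0 CPM in muscle and 0.983, 0.555 and 0.605 CPM in kidney. Hoxd8 was the other way round, at 23.5, 19.0 and 47.2 CPM in muscle and 136, 117 and 120.5 CPM in kidney, and Hoxb9 was at 0.753, 0.924 and 0.450 CPM in muscle and 39.4, 37.3 and 37.3 CPM in kidney. Muscle replicate 2 holds kidney transcripts, whose part in these values was not tested. These Hox genes were looked at after the kidney list had been seen.

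Markers of the cell types that a piece of muscle can hold were counted in the same way. All 12 markers of skeletal muscle fibres were enriched under both scalings, and their summed level was 313124 to 320598 CPM in muscle against at most 147.97 CPM in any other library. Of 8 cardiac markers tested of 10, 1 was enriched (Myh6, at 8.04, 9.78 and 3.47 CPM, not under total counts). Their summed level was 18.9 to 36.5 CPM in muscle, most of it Myl4, Tnnt2 and Myh6, and Myl7 and Gata4 were at 0 in all 3 muscle libraries. Of 8 smooth muscle markers 5 were enriched (2 under total counts), but Des made up nearly all of their sum, and Myh11, which does not mark fibres, was at 37.2, 35.8 and 31.2 CPM. Satellite cells, the stem cells of muscle, were represented by Pax7 at 3.98, 2.91 and 5.44 CPM and Cdh15 at 44.8, 41.9 and 47.4 CPM, with 4 of 7 markers enriched (3 under total counts) and Vcam1 depleted, the latter not without muscle replicate 3. The 7 markers summed to 109 to 129 CPM in muscle and 71.2 to 89.2 CPM in brain. Their sum was higher in spleen (172 to 270 CPM), kidney (321 to 346 CPM) and liver (460 to 809 CPM). Of 7 fibroblast markers 5 were enriched (2 under total counts), with summed levels of 701 to 1166 CPM, and of 6 tendon markers 3 (1 under total counts). Of 6 Schwann cell markers 3 were enriched (2 under total counts), among them the myelin gene Prx at 18.1, 11.8 and 7.80 CPM against 0.332 to 2.35 CPM elsewhere. Only Plin4 of 8 adipocyte markers was enriched, at 256, 386 and 223 CPM, and Adipoq was at 13.5, 12.2 and 4.03 CPM in muscle but 42.6, 24.3 and 1.35 CPM in kidney. The 8 markers summed to 317, 161 and 11.5 CPM in the wild-type kidney libraries. In the heterozygous libraries 4 of the 8 were enriched. Of 7 macrophage markers 6 were depleted under both scalings, with summed levels of 36.3 to 64.0 CPM in muscle and 118 to 844 CPM elsewhere. Csf1r, the growth factor receptor of macrophages and microglia, was at 5.97, 7.21 and 4.84 CPM against 46.6 to 172 CPM. Of 7 endothelial markers all exceeded the mean of the other tissues and 1, Cdh5, was enriched. Lymphocyte markers summed to 1.39 to 2.46 CPM and neuron markers to 0.0336 to 0.0563 CPM. In bulk libraries fewer cells of a type and less RNA per cell cannot be told apart. The part of these cell types in the calls of other genes was not tested.

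**Figure D4:**
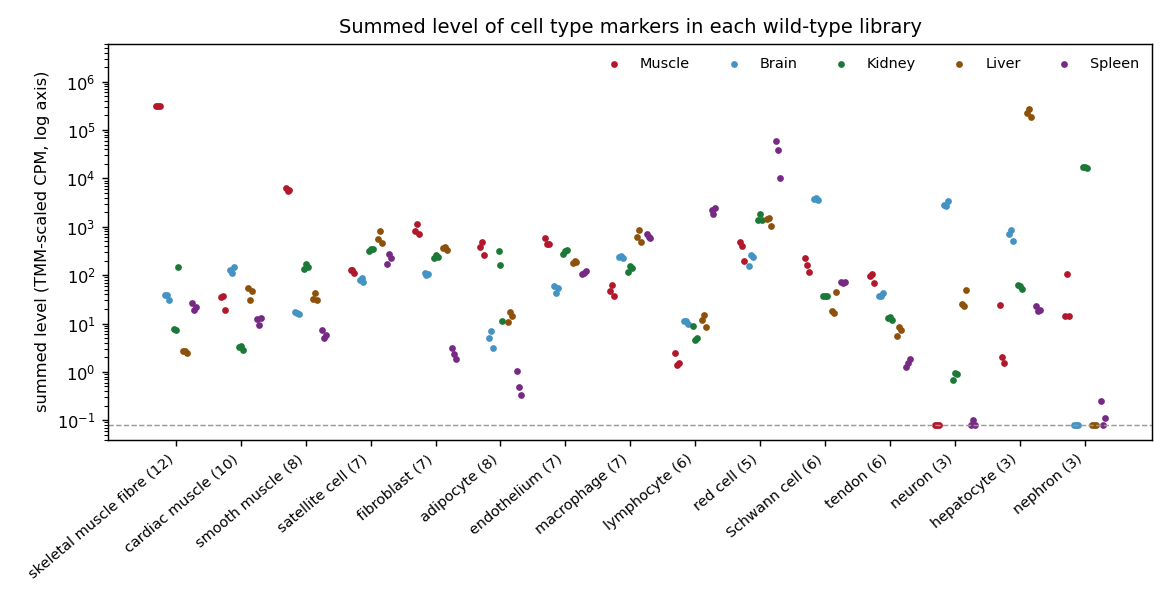
Summed level of each marker list (number of genes in brackets) in the 15 wild-type libraries, TMM-scaled CPM on a log axis, 1 point per library; sums under the dashed line at 0.0790 CPM are drawn on it. Fibre markers sum to 313124 CPM or more in muscle, macrophage and lymphocyte markers are lowest in muscle, and 1 muscle point stands above the other 2 in the nephron and hepatocyte lists.

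The 3 muscle libraries agreed for most enriched genes and parted for a few. Of 760 named enriched genes with a mean of at least 100 CPM in muscle, 624 had a highest library within 1.5-fold of the lowest, with a median ratio of 1.23, and 15 differed by more than 3-fold. Replicate 3 was the lowest in 12 of these 15. Csrp3 differed most, by 13.2-fold, and the titin-linked stretch gene Ankrd2 was at 1062, 749.6 and 166 CPM. The slow light chains Myl2 and Myl3 and the type 2A myosin Myh2 were lowest in replicate 3 too, as did Fabp3 and Pdk4, a kinase that restrains glucose oxidation, at 1891, 1783 and 349 CPM. Myh4 went the other way, with its highest level in replicate 3. Replicate 3 also had the lowest summed level of adipocyte markers (266.7 CPM against 380.6 and 477 CPM) and of fibroblast markers (701 CPM against 806.6 and 1166 CPM), and their part in these values was not tested. Most of the adipocyte sum in each muscle library was Plin4, which was itself muscle-enriched. Csrp3, Ankrd2, Pdk4, Myl2, Myl3, Myh2 and Fabp3 were still enriched without replicate 3.

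**Figure D5:**
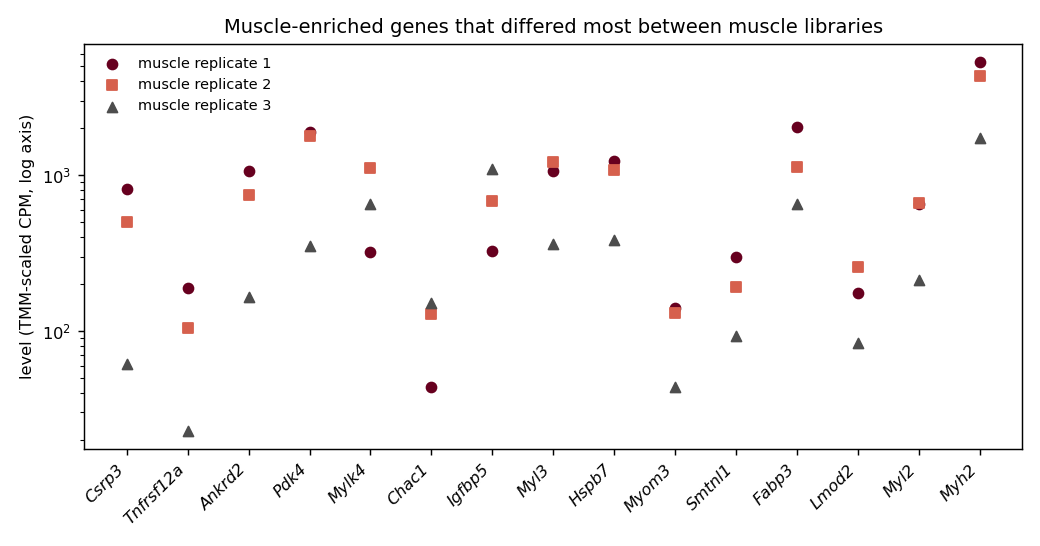
Level of the 15 muscle-enriched genes with the highest ratio between muscle libraries, in each muscle library, TMM-scaled CPM on a log axis. Replicate 3 (triangles) is the lowest for 12 of the 15 genes and Csrp3 spans 61.6 to 814 CPM.

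The muscle calls were then looked up in the 15 Ctcf+/- libraries fitted alone, which the wild-type calls did not use. There 1639 of 23028 genes were enriched (7.12%) and 1230 depleted (5.34%). Of the 1835 enriched genes 1811 were tested and 1537 were called again (84.9%), and of the 1027 depleted genes 1025 were tested and 829 called again (80.9%); none of either set was called in the opposite direction. Ctcf itself was at 49.9, 55.6 and 58.8 CPM in wild-type muscle. Spleen had 117 to 151 CPM of it and the 9 libraries of brain, kidney and liver had 38.7 to 51.2 CPM, and Ctcf was not called. Muscle replicate 1 lay within the latter range and the other 2 muscle libraries above it.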

How the data were processed

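Total RNA of wild-type muscle (3 libraries) and of brain, kidney, liver and spleen (12 libraries) was sequenced. The values are read counts per gene, deposited by the authors as 1 table per tissue. Per the file headers they were made with featureCounts v1.5.0-p3 on Ensembl release 86 (GRCm38), counting fragments without strand and leaving out those that map or belong to several places. STAR and FastQC are named in the submitters' processing notes, with no version.

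Counts were fitted with edgeR 4.0.16 (quasi-likelihood test, R 4.3.3) over the 15 wild-type libraries with 1 coefficient per tissue, filterByExpr, TMM scaling and Benjamini-Hochberg adjustment over 22933 genes. Other scalings, DESeq2 1.42.0, limma 3.58.1 (voom), other filters, a replicate block and left-out libraries were tried as alternatives. The steps were tested on simulated data in which the tissues differed only in a small set of genes changed in muscle. That setting lacks the large shift in library composition of the real muscle libraries, so it cannot test the choice of scaling. Outside the fixed gene lists, genes were named by rule: the 15 enriched genes with the highest level per kb, the 10 with the largest margin and the 15 depleted genes with the largest negative margin (minimum 10 CPM), without unnamed models and pseudogenes; all others were chosen after their values were seen. Members and lists were chosen with earlier results of these data known. Replicate numbers are not tied to animals by the labels, and among 30 pairs of wild-type libraries from different tissues with the same number, deviations from the tissue means correlated at -0.14 to 0.23, so the numbers were not taken to pair libraries. Counts of the libraries of 1 tissue differed by more than sampling noise in all 15 pairs. A few items are not reported here.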

Additional observations from a re-analysis of the deposited data

How the results depend on the processing

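The number of enriched genes was 1835, and changed by more than 1.5-fold to 820 under total counts and to 959 with a log2 margin of at least 2. The number of depleted genes was 1027, and became 2559 under total counts, 437 with a margin of at least 2, and 1901, 1638 or 1765 when brain, liver or spleen was left out of the other tissues. A wider margin and fewer tissues change these counts by construction. Total counts changed the genes higher than the mean of the other tissues from 7388 to 3923 and those lower from 7965 to 12614. Leaving out 1 library gave 1635 to 1885 enriched and 892 to 1146 depleted genes, and 6840 to 7578 and 7248 to 8472 against the mean. Kidney replicate 2 gave the lowest count of enriched genes. With the replicate block 1834 genes were enriched and 1014 depleted, and 7369 and 7986 were higher and lower than the mean. On average, 13 of 15 libraries correlated better with libraries of their own number, a hint from the data and not from the design. DESeq2, limma-voom, DESeq2 size factors, both other filters, the heterozygous libraries and the fit of all 30 libraries kept both counts within 1.5-fold. For 145 enriched or depleted genes among those the text names, 4222 of 4341 values under the alternatives kept direction and call, 119 were no longer called (38 of them at the wider margin and 22 under total counts) and none changed sign. Among named genes without a call, Atp2a2 went from 0.81 against the mean of the other tissues (log2) to -0.18 under total counts and -0.17 in the heterozygous libraries, and Atp2a3 from -0.97 to 0.44 without spleen; the cause was not tested.

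The precision of low genes is limited by counts near 0 in the other tissues and by traces of other tissues. Of the 4 libraries named for such traces, 3 were left out together. Leaving out the fourth, muscle replicate 1, gave 1754 enriched genes. Lower levels remained in libraries that were kept. Nephron markers summed to 14.5 and 14.3 CPM in muscle replicates 1 and 3, and neuron markers to 25.7 and 23.5 CPM in liver replicates 1 and 2. Their part in the calls was not tested. With 3 libraries per tissue and no map from libraries to mice, the spread between animals could not be separated from that between libraries. Antisense transcripts and overlapping genes cannot be told apart, and 28.1% of enriched and 31.0% of depleted genes share exon sequence with another gene, against 30.2% of all tested.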
